A study of Mus musculus with 2 samples.

Results

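Scavenger and endocytic receptor genes of sinusoidal endothelium were followed on 2 one-colour arrays labelled as mouse lung vascular cells. They are 10 genes: Stab1, Stab2, Fcgr2b, Gpr182, Fcna, Oit3, Msr1, Scarb1, Scarf1 and Lrp1. All probe sets with 1 of these names as their single gene symbol were taken, which gave 20 of 45037 non-control probe sets, and 10 of 18193 genes. The genes were chosen with earlier results of the same arrays known, so their values are a description and no test is attached to them.

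Per the labels, each array came from vascular cells flow-sorted out of the right lung lobes of C57BL/6J mice, 1 array from old and 1 from young animals. Every mouse, old or young, had lost its left lobe by pneumonectomy before the cells were taken, and no sample from unoperated mice was analysed here. The ages in weeks or months, the time after surgery, the markers used for sorting and whether animals were pooled are not stated in the labels. With 1 array per group no difference has a replicate check, and the number of arrays limits the precision. The labels name no tissue other than lung, yet the array of old cells carried strong liver transcripts. Alb, the plasma albumin gene of hepatocytes, had a signal of 8900 in old cells, against 20.5 in young cells, and Clec4f, the Kupffer cell lectin, had 2442 in old cells, against 22.4 in young cells. Whether the sorted cells came from lung alone was not tested, and every ratio below is between the arrays as labelled.

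Sinusoidal endothelium, best known from liver, spleen and lymph node, clears waste from the blood by clathrin-mediated endocytosis. Its scavenger receptors bind modified lipoproteins, hyaluronan and other matrix fragments, its Fc receptor binds small immune complexes, and the cargo is passed through early endosomes to lysosomes. Several of the receptors are shared with macrophages, hepatocytes, fibroblasts or lymphatic endothelium, while the continuous capillaries of the lung are not known for this clearance function.

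Signals are MAS5 intensities after the arrays were centred on each other. The floor was 73.7 signal units, the median of the array with the higher median, and signals below it were treated as unordered. A fold against a signal below the floor was computed against the floor and is written as "at least". A gene with several probe sets was represented by its brightest probe set (by mean log2 signal), and a difference of 2-fold or more, old over young in either direction, was counted.

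Of the 10 genes, 8 were 2-fold or more higher in old cells and 0 in young cells, and 2 lay within 2-fold. Over all 12105 genes above the floor on at least 1 array, 16.0% were 2-fold or more higher in old cells and 11.3% in young cells. The genes were picked from this same contrast, so nothing is read from that difference. The median log2 ratio, old minus young, was 4.05 over the 10 genes, with bounds taken at their value, and 0.03 over all measured genes. In sorted bulk cells, a larger share of cells of a type and more RNA per cell cannot be told apart.

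**Figure D1:**
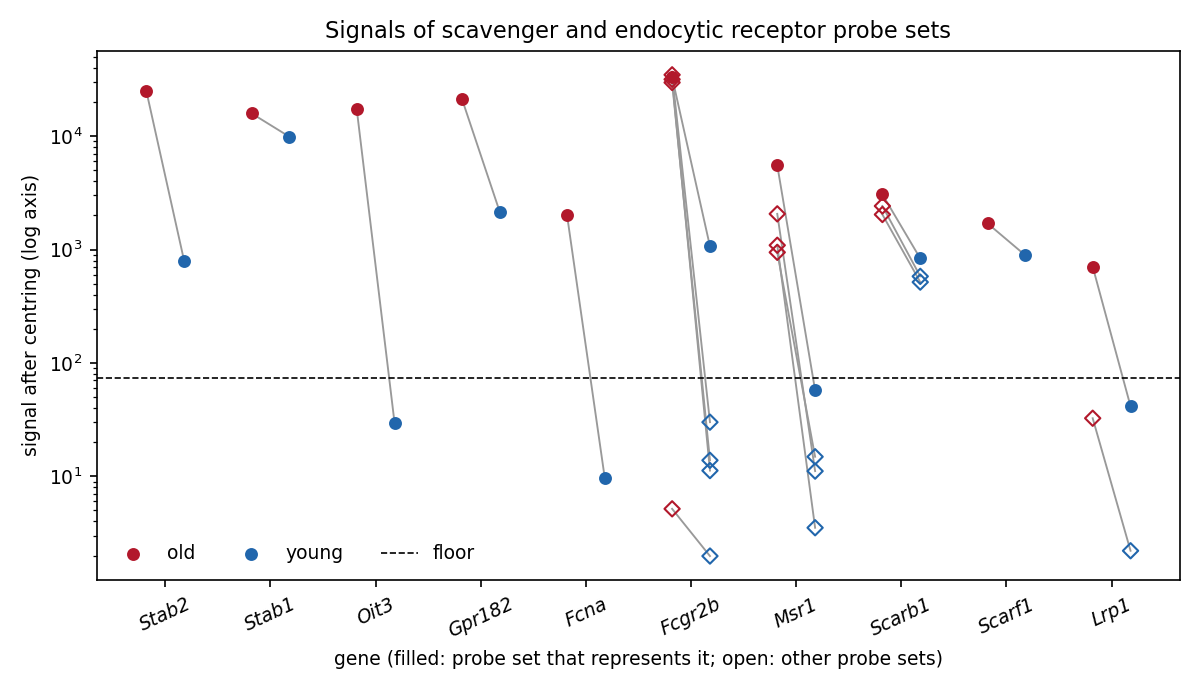
Signal of each of the 20 probe sets from old (red, left) and young (blue, right) cells after centring, on a log axis, with a line joining the 2 signals of a probe set and the floor of 73.7 dashed. Stab1, Stab2, Gpr182, Scarf1 and Scarb1 stayed well above the floor on both arrays, while Oit3, Fcna, Msr1 and Lrp1 lay below it in young cells.

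The promoters of Stab2, Stab1 and Fcna are shown because they belong to a pair of related receptors with unlike ratios and to a member found above the floor only in old cells. Each line gives the 250 bases before the gene start, taken from RefSeq on GRCm38.p6 and read 5′ to 3′ on the minus strand, which is the strand of each of these genes. Starts are as listed, and the annotation of each of the 3 genes also reaches further upstream. They lie at chr10:87007943-87008192 for Stab2, chr14:31168642-31168891 for Stab1 and chr2:25627975-25628224 for Fcna. Capitals mark AGGAAG, a core letter string of ETS factor sites, or TGCTGA, part of the MAF factor recognition string, on either strand, so that in Stab2 the marked letters are the complement CTTCCT.
Stab2, upstream: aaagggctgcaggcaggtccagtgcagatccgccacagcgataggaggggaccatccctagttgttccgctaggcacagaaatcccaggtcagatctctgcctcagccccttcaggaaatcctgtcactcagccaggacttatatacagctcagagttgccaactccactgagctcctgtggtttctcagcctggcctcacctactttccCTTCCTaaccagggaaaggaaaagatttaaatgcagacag
Stab1, upstream: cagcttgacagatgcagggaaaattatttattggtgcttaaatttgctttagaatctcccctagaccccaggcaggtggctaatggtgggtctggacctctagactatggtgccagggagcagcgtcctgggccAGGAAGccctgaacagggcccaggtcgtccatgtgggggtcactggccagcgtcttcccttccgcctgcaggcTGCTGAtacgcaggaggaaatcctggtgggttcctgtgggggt
Fcna, upstream: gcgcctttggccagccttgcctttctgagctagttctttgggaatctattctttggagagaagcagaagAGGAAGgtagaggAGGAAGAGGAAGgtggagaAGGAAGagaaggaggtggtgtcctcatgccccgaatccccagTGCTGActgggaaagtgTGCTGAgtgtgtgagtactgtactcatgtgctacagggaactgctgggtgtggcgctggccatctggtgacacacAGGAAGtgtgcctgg

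Of the 10 genes, 5 had a listed promoter, the others being those of Fcgr2b and Lrp1. These others are not printed, although Lrp1 too was above the floor only in old cells. Neither held AGGAAG or TGCTGA, so only promoters with a marked string are printed. In windows of 250 bases before to 50 bases after the start, 7 strings were searched on both strands. Besides AGGAAG for ETS factors and TGCTGA for MAF factors, these were AGATAA for Gata-type factors, ACAAAG for SOX factors, TATAAA for the core promoter box, GGGCGG for Sp-type factors and TGANTCA for AP-1. AGGAAG was found in 3 of the 5 windows, those of Stab2, Stab1 and Fcna, and in 35.4% of all 32851 listed windows. TGCTGA was found in 2 of the 5, those of Stab1 and Fcna, and in 19.5% of all windows. The Fcna window held 5 copies of AGGAAG, of which 4 sit in a purine-rich run, and 0.100% of all windows held 5 or more. The Lrp1 window held GGGCGG, which 35.7% of all windows hold, and the Fcgr2b window held none of the 7. The other 4 strings were in none of the 5 windows. Among all windows, AGATAA was held by 11.2%, the SOX string by 18.7%, the core promoter box by 13.6% and the AP-1 string by 7.81%. A match describes letters and not a bound site.

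The stabilins are large related receptors of sinusoidal endothelium that take up hyaluronan, modified lipoproteins and other waste. Stab2 gave a signal of 24882 in old cells, against 787 in young cells, which is 31.6-fold higher in old cells (log2 ratio 4.98). Stab1 had 15887 in old cells, against 9881 in young cells, a log2 ratio of 0.69 or 1.61-fold. Each stabilin has 1 probe set, and the pair differed by 4.30 in log2 ratio. Both stabilins were therefore well above the floor on both arrays, while Stab2 was far lower in young cells than in old cells. Stab1 is also known from lymphatic endothelium and from subsets of macrophages, and Stab2 marks sinusoidal endothelium more narrowly.

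Gpr182, Oit3 and Fcna were on the old side too. Gpr182, an atypical chemokine receptor of sinusoidal and lymphatic endothelium, gave a signal of 21451 in old cells, against 2161 in young cells (9.93-fold, log2 ratio 3.31). Oit3, a secreted protein with a zona pellucida domain that is known from liver, had 17451 in old cells, against 29.7, below the floor, in young cells. Its fold was at least 237. Fcna, ficolin A, a soluble recognition protein of the lectin complement pathway made by macrophages, had 2028 in old cells, against 9.58, below the floor, in young cells. It was at least 27.5-fold higher in old cells.

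Fcgr2b encodes the inhibitory receptor for immunoglobulin G, which sinusoidal endothelium uses to clear small immune complexes and which B cells and macrophages carry as well. Its representative probe set gave a signal of 33136 in old cells, against 1068 in young cells (31.0-fold, log2 ratio 4.96). The other 3 probe sets above the floor had 29726, 31688 and 34751 in old cells, against 13.8, 11.2 and 30.0, all below the floor, in young cells. They give at least 403-fold, at least 430-fold and at least 472-fold. The 4 probe sets therefore gave similar signals in old cells and differed in young cells, where 1 of them stood above the floor. The fifth had 5.17 in old cells, against 1.98 in young cells, both below the floor. Of the 4, 1 is of the _s_at and 1 of the _x_at kind, whose probes can match other transcripts, and the Fc receptor Fcgr3 has an extracellular part closely similar to that of Fcgr2b. Fcgr3 itself had 433 in old cells, against 16.5, below the floor, in young cells. The representative probe set is of neither kind, so without _x_at and _s_at probe sets the log2 ratio stayed at 4.96. Matching to other transcripts was not tested.

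The other Fc receptors and their signalling genes ran the same way, with 5 of 7 measured genes 2-fold or more higher in old cells and 0 in young cells (median log2 ratio 2.55). Fcer1g, the signalling chain of activating Fc receptors, gave a signal of 4593 in old cells, against 22.3, below the floor, in young cells (at least 62.3-fold). Fcgrt, the neonatal Fc receptor that recycles immunoglobulin G in endothelium, had 17653 in old cells, against 2654 in young cells (6.65-fold). The activating receptors were also on the old side, Fcgr4 by at least 6.25-fold, Fcgr3 by at least 5.87-fold and Fcgr1 by at least 2.75-fold. All 3 were below the floor in young cells. In the GRCm38.p6 gene order, Fcgr4 and Fcgr3 follow Fcgr2b on chromosome 1.

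Msr1, the class A scavenger receptor of macrophages, was above the floor in old cells in each of its 4 probe sets and below it in young cells in each. Its representative gave a signal of 5539 in old cells, against 57.4 in young cells (at least 75.2-fold). The other 3 had 2064, 1091 and 945 in old cells, against 11.1, 3.52 and 14.9 in young cells, and their bounds were at least 28.0-fold, at least 14.8-fold and at least 12.8-fold. Bounds of this kind follow the old signal, so their spread is not a disagreement between probe sets.

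Macrophage markers were mostly higher in old cells as well. Of 15 macrophage and Kupffer cell markers 14 were 2-fold or more higher in old cells and 0 in young cells, with a summed signal of 32975 in old cells and 933 in young cells. Among them Adgre1, which encodes F4/80, had 537 in old cells, against 32.3, below the floor, in young cells. Pan-leukocyte markers were higher in old cells for 6 of 7 genes, with summed signals of 9642 in old cells and 1776 in young cells. Of 4 matched B cell markers, Ms4a1 was at least 2.01-fold higher in old cells, Cd79a and Cd79b were just above the floor in old cells and below it in young cells, with bounds of at least 1.02-fold and at least 1.14-fold, and Pax5 was below the floor on both. With the floor at the 25th percentile all 4 were 2-fold or more higher in old cells. The summed B cell signal was 368 in old cells and 67.8 in young cells. The part of these cell types in the signals of Msr1, Fcna and Fcgr2b was not tested.

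Scarb1, the receptor through which cells take up cholesterol from high-density lipoprotein (HDL), had 3 probe sets, all above the floor on both arrays. The representative gave a signal of 3063 in old cells, against 835 in young cells (3.67-fold, log2 ratio 1.88). The others had 2036 and 2421 in old cells, against 516 and 580 in young cells, which is 3.95-fold and 4.17-fold. The log2 ratios thus ran from 1.88 to 2.06, a range below the SD of 0.42 that probe sets of 1 gene showed across 4514 genes. Scarf1, a class F scavenger receptor of endothelium that binds acetylated low-density lipoprotein, had 1701 in old cells, against 888 in young cells. Its ratio of 1.92-fold (log2 0.94) lay just short of 2-fold, and was 1.01 on the log2 scale with loess normalization.

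Lrp1, a large endocytic receptor for remnant lipoproteins and protease complexes that hepatocytes, fibroblasts and macrophages use, gave a signal of 707 in old cells, against 41.5, below the floor, in young cells (at least 9.59-fold). Its second probe set had 32.5 in old cells and 2.21 in young cells, below the floor on both. The Lrp1 call does not hold with the floor at the 75th percentile, where the bound was 0.53 on the log2 scale.

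Hepatocyte and fibroblast markers were mostly higher in old cells, as were the other liver sinusoidal and the macrophage lists. All 9 matched hepatocyte markers were 2-fold or more higher in old cells, with summed signals of 19178 in old cells and 142 in young cells. By its representative probe set each was below the floor in young cells. Fibroblast markers were higher in old cells for all 6 measured genes, with summed signals over 7 matched genes of 22792 in old cells and 263 in young cells, and the representative probe set of Pdgfra was below the floor on both. The part of these cells in the signals of Lrp1, Scarb1 and Oit3 was not tested.

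**Figure D2:**
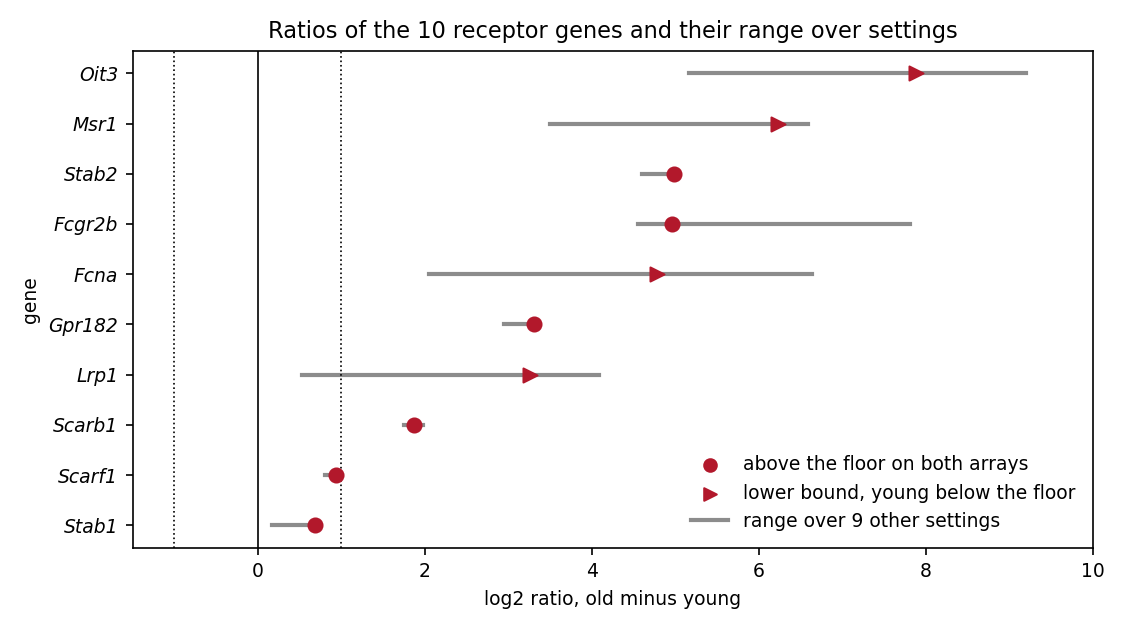
Log2 ratio, old minus young, of the 10 genes (circles above the floor on both arrays, triangles a lower bound), with grey bars for the range over 9 other settings and dotted lines at 2-fold in each direction. The circles of Stab1 and Scarf1 lie left of the right dotted line, and the bars of Lrp1 and Scarf1 cross it.

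The ordering by log2 ratio was Oit3 (at least 7.89), Msr1 (at least 6.23), Stab2 (4.98), Fcgr2b (4.96), Fcna (at least 4.78), Gpr182 (3.31), Lrp1 (at least 3.26), Scarb1 (1.88), Scarf1 (0.94) and Stab1 (0.69). The 4 bounds have no fixed place in it, since they follow the floor. With the floor at the 25th and at the 75th percentile, Oit3 had at least 9.20 and at least 5.16, and Fcna at least 6.64 and at least 2.05. Among the genes measured on both arrays, Scarf1 and Stab1 are closer than the SD of 0.42 between probe sets. Fcgr2b is as close to Stab2 by its representative probe set alone, and its place also rests on that choice, since the mean over its probe sets was 7.81. That SD describes probe behaviour and not the mice.

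**Figure D3:**
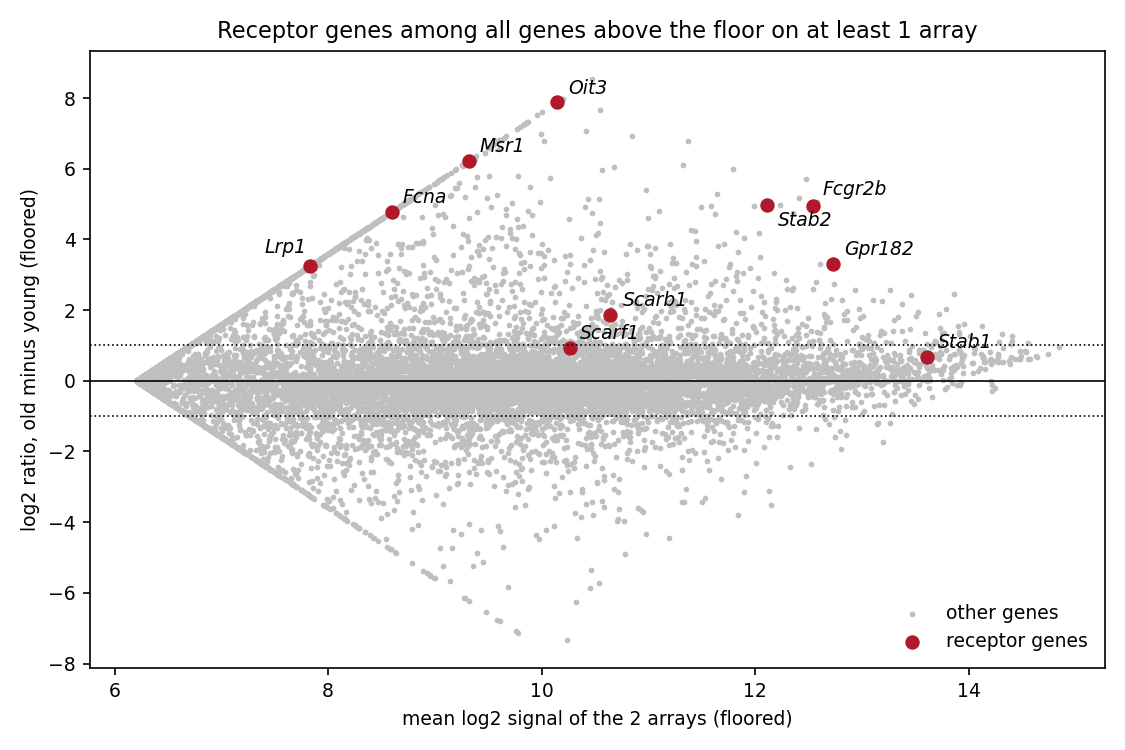
Log2 ratio, old minus young, against the mean log2 signal of the 2 arrays, for all 12105 genes above the floor on at least 1 array (grey) and the 10 receptor genes (red), with signals below the floor set to it and dotted lines at 2-fold. Oit3, Msr1, Fcna and Lrp1 lie on the upper edge, where the young signal equals the floor.

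The genes with signals nearest to those of Stab2 on both arrays were Ehd3, Apoe and Nrp1, at distances of 0.17, 0.18 and 0.38 in log2 signal over the 2 arrays. Ehd3, an endosome recycling protein, had 26903 in old cells, against 863 in young cells. Nearest to Stab1 were Rpl8, a ribosomal protein gene, the splicing factor gene Sf1 and Serf2, at 0.03, 0.05 and 0.07. With 2 arrays such likeness rests on 2 values per gene.

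By position, Stab2, Gpr182, Oit3 and Lrp1, 4 of the 10 genes, are on chromosome 10. The share of all measured genes on that chromosome was not computed, so nothing is read from this count. In the GRCm38.p6 gene order 6 protein-coding genes separate Lrp1 from Gpr182. Of these 4 were 2-fold or more higher in old cells, namely Stat6 (4.64-fold), Nab2 (4.08-fold), Zbtb39 (3.10-fold) and Nemp1 (2.63-fold), and Myo1a and Tac2 were below the floor on both arrays. Over all measured genes 16.0% were 2-fold or more higher in old cells. The 6 genes were taken after the arrays had been seen, so nothing is read from their count.

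Other scavenger receptors were mixed, with 11 of 16 measured genes 2-fold or more higher in old cells and 2 in young cells (median log2 ratio 2.03). Mrc1, the mannose receptor of sinusoidal endothelium and macrophages, gave a signal of 27542 in old cells, against 42.0, below the floor, in young cells (at least 374-fold). Cd36, a class B receptor for fatty acids and oxidised lipoprotein, had 10905 in old cells, against 98.9 in young cells (110-fold). Cxcl16, a membrane chemokine that binds oxidised lipoprotein, was 27.2-fold higher in old cells, Pla2r1 at least 25.2-fold and the oxidised lipoprotein receptor gene Olr1 at least 21.0-fold. On the young side were Colec12, a class A receptor of endothelium (2.93-fold), and Ager, an alveolar type 1 cell receptor (2.08-fold). Scara5, Megf11 and Ly75 were below the floor on both arrays.

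Relatives of the same class, chosen after their values were seen, differed from the members in unlike ways. Scarb1 had a log2 ratio of 1.88 and its lysosomal relative Scarb2 had 1.84, while Cd36, of the same class B, had 6.78. Scarf1 had 0.94 and Scarf2 had 1.11, with probe sets of Scarf2 at 0.20 and 1.11. Within class A, Msr1 had at least 6.23 and Marco at least 3.86, whereas Colec12 had -1.55.

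Genes known from liver sinusoidal endothelium other than the members were higher in old cells for 16 of 18 and in young cells for 0 (median log2 ratio 4.62). Bmp2, a ligand that signals to hepatocytes for iron control, had 18710 in old cells, against 5.68, below the floor, in young cells (at least 254-fold). Plxnc1, a semaphorin receptor, was at least 242-fold higher (its 6 measured probe sets ranged down to 2-fold), the nuclease gene Dnase1l3 at least 236-fold and the lectin-like receptor gene Clec1b at least 194-fold. By their representative probe sets, the 2 genes within 2-fold were Lyve1, the hyaluronan receptor of lymphatic and sinusoidal endothelium, and Flt4, a receptor for VEGF-C. Lyve1 had 14902 in old cells, against 16120 in young cells, with probe sets at -1 and -0.11 in log2 ratio. Flt4 had 18035 in old cells, against 10262 in young cells, with probe sets at -0.15 and 0.81 in log2 ratio. Like Stab1, both are also known from lymphatic endothelium. So is Gpr182, which was 9.93-fold higher in old cells.

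Lymphatic endothelial markers had 0 of 6 genes higher in old cells and 4 in young cells (median log2 ratio -3.56), with summed signals of 35059 in old cells and 54248 in young cells. Without Lyve1 and Flt4, which the sinusoidal list also holds, the other 4 summed to 2122 in old cells and 27866 in young cells. Prox1, the transcription factor of lymphatic identity, had 60.6, below the floor, in old cells, against 6885 in young cells. The part of lymphatic cells in the Stab1 signal was not tested.

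General endothelial markers were well above the floor on both arrays. Pecam1 had 6049 in old cells, against 6239 in young cells, and Cdh5 had 12534 in old cells, against 9951 in young cells, with Cdh5 probe sets at -0.26 and 0.33 in log2 ratio. Of 12 pan-endothelial genes 5 were 2-fold or more higher in old cells and 1 in young cells, with a median log2 ratio of 0.59. The 5 were Robo4 (9.12-fold), Tek (5.91-fold), Esam (2.68-fold), Eng (2.54-fold) and Kdr (2.21-fold), and Emcn was 2.17-fold higher in young cells. Of 12 lung capillary markers 9 were above the floor on at least 1 array, of which 4 were 2-fold or more higher in old cells and 1 in young cells. Plvap, a capillary diaphragm protein, had 7606 in old cells, against 9905 in young cells. Gpihbp1, which carries lipoprotein lipase, had 32563 in old cells, against 911 in young cells, and the lipase gene Lpl had 1588 in old cells, against 108 in young cells. Hpgd had the largest ratio of this list, with 11154 in old cells, against 26.0, below the floor, in young cells (at least 151-fold). Its probe sets lay at 3.49 and 7.24 in log2 ratio, and Sema3c was at least 5.89-fold higher in old cells. Ednrb, an endothelin receptor gene, had 1280 in old cells, against 11300 in young cells. The capillary markers Car4, Tbx3 and Fibin were below the floor on both.

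Clathrin and its adaptors form and load the vesicles that carry receptors inward. Of 19 measured clathrin, adaptor and endosome genes, 16 were within 2-fold, 2 were 2-fold or more higher in old cells and 1 in young cells (median log2 ratio 0.15). Of all 12105 measured genes, 8802 were within 2-fold. The clathrin adaptor genes Ap2s1 (2.43-fold) and Ap2a2 (2.21-fold) were on the old side, with Ap2a2 probe sets between 0.27 and 2.91 on the log2 ratio scale, and Ap2a1 (2.38-fold) was on the young side. Cltc, the clathrin heavy chain, had 14411 in old cells, against 10767 in young cells. Rab5c, an early endosome GTPase, was 1.96-fold and the clathrin light chain gene Clta 1.73-fold higher in old cells, both within 2-fold, with Clta probe sets between -0.06 and 0.79 in log2 ratio.

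The LDL receptor family, to which Lrp1 belongs, went both ways, with 2 of 9 measured genes and regulators 2-fold or more higher in old cells and 3 in young cells (median log2 ratio 0.36). Mylip, a ubiquitin ligase that degrades receptors of this family, had 14271 in old cells, against 1260 in young cells (11.3-fold). Vldlr, the very-low-density lipoprotein receptor gene, had 185 in old cells, against 3205 in young cells (17.4-fold higher in young cells), and its probe sets spread between -4.12 and -1.38 on the log2 ratio scale. Lrp12 was 3.52-fold and Lrp8 at least 3.01-fold higher in young cells, and Lrp10 2.13-fold in old cells. Neither array had Lrp1b or Lrp2 above the floor, nor the representative probe set of Sorl1, of which 1 other was above it.

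Partners of the other members were on the old side, within 2-fold or below the floor. Of 4 measured lectin pathway genes all 4 were 2-fold or more higher in old cells, with Masp1, a serine protease of the pathway, at 12421 in old cells, against 2045 in young cells (6.07-fold). Its probe sets spread between 0.66 and 2.77 on the log2 ratio scale. Among soluble collectins known from liver, Colec11 was higher by at least 3.28-fold, Colec10 by at least 3.03-fold and Mbl2 by at least 2.06-fold. Fcnb, the ficolin relative of Fcna, as well as Mbl1 and Masp2, were below the floor on both arrays. Of 8 measured HDL and cholesterol handling genes 3 were 2-fold or more higher in old cells and 0 in young cells. Apoe, the remnant apolipoprotein that Lrp1 binds, was 31.0-fold higher, the sterol exporter gene Abcg1 8.60-fold and the lysosomal cholesterol carrier gene Npc1 2.04-fold. Lcat and Lipg had bounds of 1.93-fold and 1.57-fold toward the old array, and Pdzk1, the Scarb1 adaptor, was below the floor on both.

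**Figure D4:**
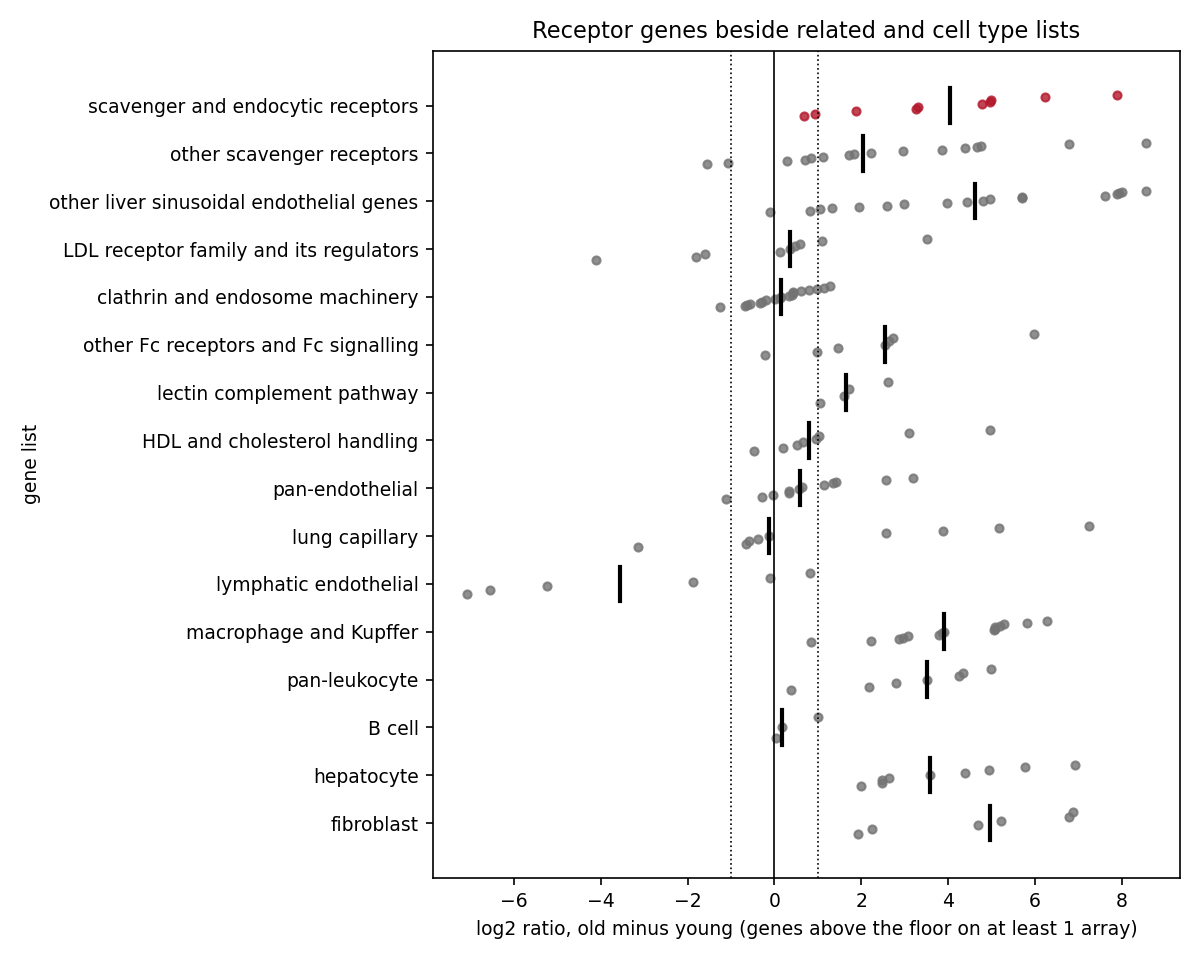
Log2 ratio, old minus young, of each measured gene in the receptor set (red) and in 15 related or cell type lists (grey), with black bars at list medians and dotted lines at 2-fold. The receptor set (median 4.05) and the other liver sinusoidal genes (4.62) lie to the right. So do the fibroblast (4.95), macrophage and Kupffer (3.91), hepatocyte (3.59) and pan-leukocyte (3.51) lists, so the shift is not particular to sinusoidal genes. Clathrin and endosome machinery (0.15) lies near 0, and lymphatic endothelial genes (-3.56) lie to the left.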

How the data were processed

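Per the submitters' processing notes, the authors used GCOS 1.4 and MAS5, and the deposited values are linear MAS5 intensity, whose 2% trimmed mean was 500.003 for either array. Scanner images and detection calls were not used here. Symbols were read from the 2016 platform annotation, where 34958 probe sets had 1 symbol, 932 several and 9211 none. Control probe sets (64) were left out. All 10 members matched a current RefSeq symbol. No genome build is named for the arrays.

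The arrays were centred on the median log2 ratio of probe sets at or above each array's median on both arrays, which was -0.13 (old minus young) on the deposited values. The scale factors were 1.05 (old) and 0.956 (young). In old cells 22519 probe sets reached the floor, and in young cells 20901. No statistical test was made. The procedure was tested on simulated data. Changes were put there only into genes well above the floor in young cells. Bounds against a young signal below the floor were therefore not tested.

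The members and lists were chosen with earlier results of these data known. All members were named, with up to 5 genes per related list by absolute ratio, those below the floor, and the 3 genes nearest to Stab2 and to Stab1 by Euclidean distance of floored log2 signals. Cell type markers, and genes said to be chosen after their values were seen, fall outside that rule. Alternatives were no centring, equal trimmed means, loess (span 0.4), quantile normalization, floors at the 25 and 75 percentiles, the mean over probe sets, no _x_at or _s_at probe sets, and an offset of 0.5 of the floor. Tools were pandas 2.3.3, numpy 2.4.6, statsmodels 0.14.6, scipy 1.17.1 and matplotlib 3.10.9 in Python 3.11.15.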

Additional observations from a re-analysis of the deposited data

How the results depend on the processing

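Over 9 alternatives the number of receptor genes 2-fold or more higher in old cells ran from 7 (floor at the 75th percentile, where Lrp1 had a bound of 0.53) to 9 (loess, where Scarf1 had 1.01), and the number higher in young cells was 0 in each. The median log2 ratio was 4.52 with the floor at the 25th percentile and 2.68 at the 75th, because bounds follow the floor. Of 90 single-gene ratios 79 moved by less than the SD of 0.42 between probe sets, 11 by more, and 0 changed direction. Many of the 79 could not move. No representative is an _x_at or _s_at probe set, and a single probe set is its own mean. Stab1, Stab2, Fcgr2b, Gpr182, Scarb1 and Scarf1 exceeded every floor tried, so a floor change left them as they were. The trimmed means were already equal, so that setting nearly repeats the deposited values. A bound toward old cells cannot change direction. The 90 ratios are therefore not 90 separate checks. Stab1 had 0.17 with quantile normalization, and Fcgr2b had 7.81 over the mean of its probe sets. The median over all genes was 0.03, and -0.09 on the values as deposited. The median of the lung capillary list was -0.12, but 0.96 and 1.70 with the lower and higher floor. List counts 2-fold or more higher in old cells ran from 7 to 13 for other scavenger receptors and 2 to 6 for other Fc genes. They ran from 1 to 5 for lectin pathway, 2 to 5 for HDL and cholesterol and 1 to 2 for LDL receptor family genes. For cell type lists they ran from 4 to 9 for hepatocyte, 0 to 4 for B cell, 3 to 5 for pan-endothelial and 3 to 6 for lung capillary genes. The range was 10 to 14 for macrophage and Kupffer, 4 to 6 for pan-leukocyte and for fibroblast, and 14 to 16 for other liver sinusoidal genes. Fewer genes were measured with the floor at the 75th percentile, where the lectin count was 1 of 1, the Fc count 2 of 3 and the hepatocyte count 4 of 5. Over all measured genes the share ran from 12.5% to 18.7%. List counts 2-fold or more higher in young cells ran from 1 to 3 for the LDL receptor family and lung capillary lists. For other scavenger receptors they ran from 0 to 2, and the share over all measured genes from 7.68% to 13.3%. Signals close to or below the floor limit Fcna, Oit3, Msr1 and Lrp1 to bounds. No paired analysis was possible because each group has 1 array.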
